A study of Arabidopsis thaliana with 12 samples.

Results

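The genes described here were 84 of the 19522 genes measured in seedlings of Arabidopsis thaliana. They had lower values with glucose in the wild type Col-0 and higher values with glucose in the ein2-5 mutant. A gene was a member where its group mean on the log2(CPM + 1) scale was at least 0.4 lower in Col-0 +Glc than in Col-0 -Glc, and at least 0.2 higher in ein2-5 +Glc than in ein2-5 -Glc. CPM is reads scaled to 1000000 per library. Its mean also had to reach 5 CPM in the highest group. Chloroplast and mitochondrial genes were left out. The members were therefore chosen on the glucose responses of both genotypes, and those responses are given as a description. Where calls on them are counted, the share of all genes stands beside the count and nothing is read from it.

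Whole seedlings aged 4 days, raised in liquid medium that held no glucose, formed 4 groups of 3 libraries. The groups were ein2-5 given 15 mM glucose for 2 h (ein2-5 +Glc), ein2-5 given none (ein2-5 -Glc), Col-0 given the same glucose (Col-0 +Glc) and Col-0 given none (Col-0 -Glc). Both genotypes share the Col-0 background, all groups were kept without glucose before treatment, and the mutant is a single allele of EIN2. Whether replicates were grown separately is not labelled, so p-values reflect only how much these libraries vary, which may be technical.

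EIN2 is a membrane protein without which ethylene perceived at the receptors does not reach the transcription factor EIN3 and its relatives. Sugar shortage makes a seedling draw on its reserves, and glucose stops that use. The first reserves of a seedling are those laid down in the seed. Storage proteins such as cruciferins and albumins, oil held in bodies coated by oleosins, and late embryogenesis abundant (LEA) proteins that protect the dry embryo are made in the maturing seed under abscisic acid and ABI3, and their transcripts disappear as the seedling grows. The oil is broken down in the peroxisome by beta-oxidation, and the glyoxylate cycle and phosphoenolpyruvate carboxykinase turn the product into sugar.

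Library depth, worked out from the table, ran from 11470134 to 17461274 reads. EIN2 lay between 43.4 and 60.2 CPM in the 6 ein2-5 libraries and between 105 and 137 CPM in the 6 Col-0 libraries, so each library followed its genotype label. The libraries of a group were not alike in seed transcripts. The 12 measured genes of a seed storage list summed to 146, 2161 and 3293 CPM in ein2-5 +Glc 1, 2 and 3, and to 784, 774 and 1321 CPM in ein2-5 -Glc 1, 2 and 3. They summed to 1.55, 3.33 and 2.41 CPM in Col-0 +Glc 1, 2 and 3, and to 156, 5.78 and 8.76 CPM in Col-0 -Glc 1, 2 and 3. The 3 libraries Col-0 -Glc 1 and ein2-5 +Glc 2 and 3 thus stood high within their groups. They are called the seed-rich libraries, and results are given with and without them. Over all genes, however, ein2-5 +Glc 1 was the least like the others of its group. Its r was 0.977 and 0.969 to ein2-5 +Glc 2 and 3, against 0.991 between those. Its seed storage sum of 146 CPM also lay below those of all ein2-5 -Glc libraries. Which of these libraries is typical of ein2-5 +Glc was not tested. In RNA from whole seedlings, fewer cells of a type and less RNA per cell cannot be told apart. The 30 genes of a late embryo and oil body list had the same order within these groups, with 155, 1226 and 1582 CPM in ein2-5 +Glc and 115, 5.27 and 8.42 CPM in Col-0 -Glc. The light harvesting and RuBisCO small subunit genes, markers of green tissue, summed to between 40479 and 70795 CPM in ein2-5 and between 62352 and 84654 CPM in Col-0.

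The 84 members fell into 3 sets by what their products are known to be. This sorting was made after the values had been seen and carries no test. Of the members 22 encode seed storage proteins, LEA proteins, oleosins and tonoplast water channels of the seed, or are annotated in their families. Among them AT5G55410 is annotated only to the superfamily of bifunctional inhibitors, lipid-transfer proteins and 2S albumins. Another 7 encode enzymes or proteins of oil breakdown, the glyoxylate cycle and gluconeogenesis. The remaining 55 have other or unknown functions. The median change with glucose over all members was 0.38 in ein2-5 and -0.66 in Col-0, against 0.09 and 0.19 over all genes. The members were spread over the genome, with 16, 14, 20, 10 and 24 on chromosomes 1 to 5.

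**Figure D1:**
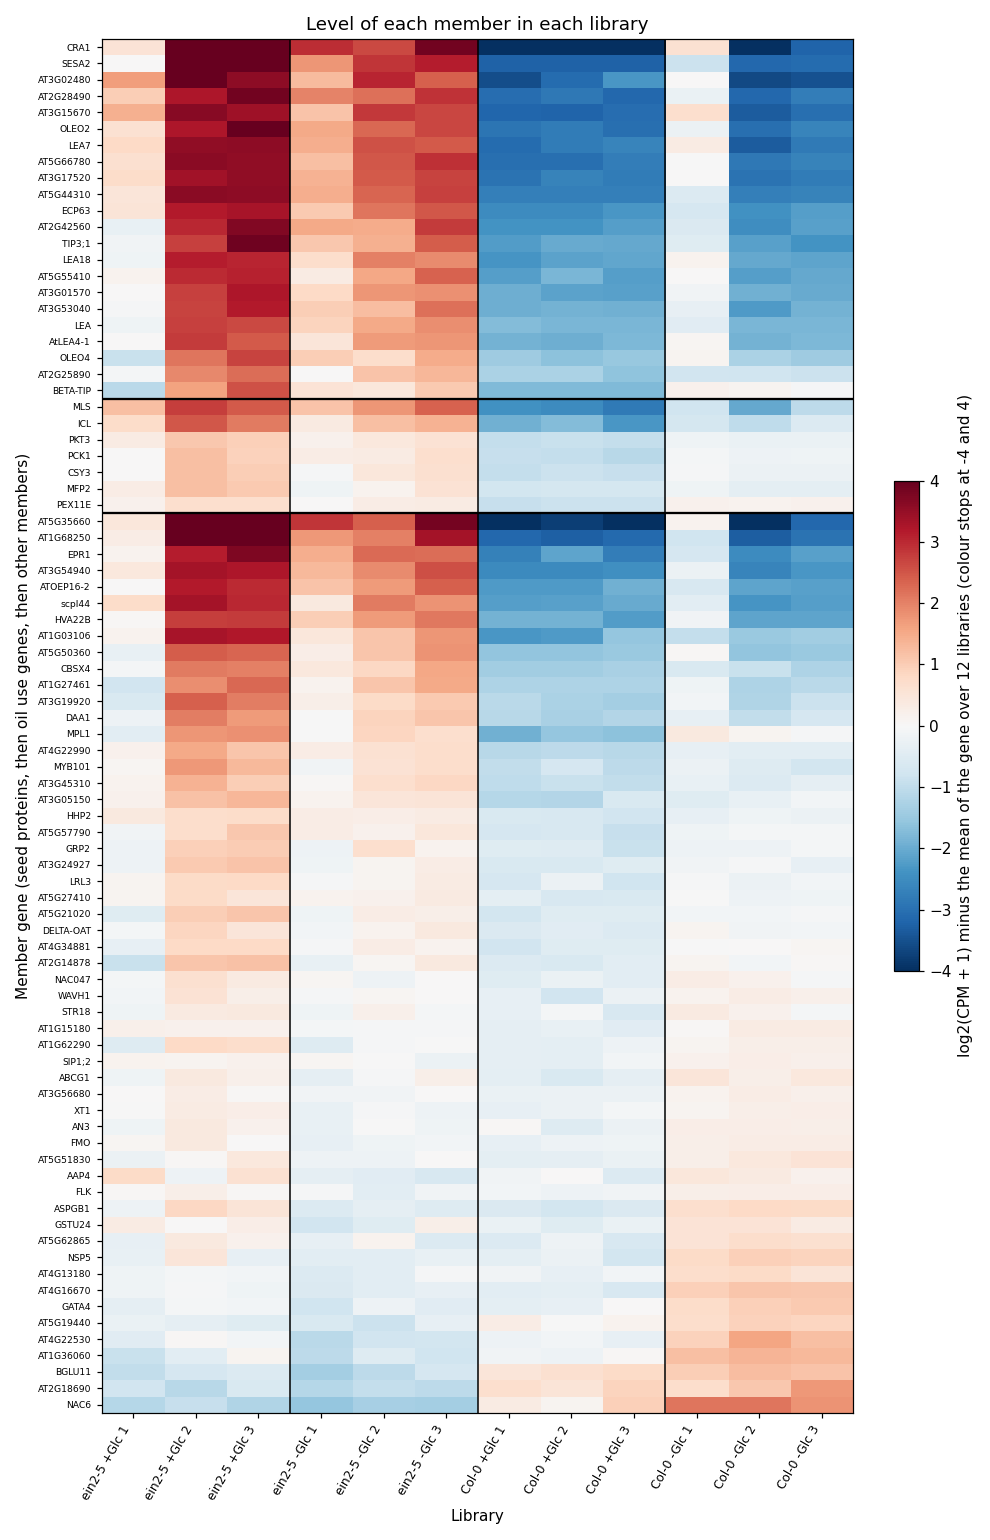
Each row is a member and each column a library; colour gives log2(CPM + 1) minus the mean of the gene over the 12 libraries, from -4 (blue) to 4 (red). The 22 seed protein genes are at the top, then the 7 oil use genes, then the 55 others. In the upper set, ein2-5 +Glc 2 and 3 are the reddest columns, and Col-0 -Glc 1 stands apart from Col-0 -Glc 2 and 3.

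Membership depended on the seed-rich libraries. Without them, 26 genes met the rule, of which 11 were among the 84. Without Col-0 -Glc 1, 48 members still met the Col-0 condition and 73 were still below 0. With ein2-5 +Glc 1 as the single library of its group, 11 members met the ein2-5 condition and 64 were below 0, that is, lower with glucose in ein2-5 as well. The number of genes meeting the rule moved most with the ein2-5 libraries, to 165 without ein2-5 +Glc 1, 40 without ein2-5 +Glc 2, 44 without ein2-5 +Glc 3 and 50 without ein2-5 -Glc 1. Within the groups, ein2-5 +Glc 1 was the lowest of its group for 73 members, or 86.9%, against 34.7% of all genes. In ein2-5 -Glc, library 1 was the lowest for 71 members, against 29.8% of all genes, and Col-0 -Glc 1 was the highest of its group for 54, against 43.9%. Col-0 -Glc 1 was at least 3 times as high as both other libraries of its group for 29 members, or 34.5%, against 0.763% of all genes. A single high or low library can carry a group mean past a threshold of the rule. These counts within groups are therefore partly fixed by it, and nothing is read from them.

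In the limma fit to all genes, 11 members were called higher with glucose in ein2-5, where 26.5% of all genes were called higher. In Col-0, 40 were called lower, where 19.7% of all genes were called lower, and 45 without the seed-rich libraries, against 18.9%. These are the contrasts that chose the members, and nothing is read from the counts. In ein2-5, deviations of libraries with the same replicate number correlated with r of 0.56, 0.12 and 0.43. With the replicate number as a block, the 11 called higher in ein2-5 became 28, against 28.9% of all genes called higher. Without the seed-rich libraries 1 member was called higher with glucose in ein2-5, against 13.7% of all genes. In that fit 30 were called lower, against 8.86% of all genes, with ein2-5 +Glc 1 alone in its group and assumed to vary like the others. In same-numbered pairs of ein2-5 libraries, 32 members were higher with glucose in all 3 pairs and 52 in 2 of 3. The rule required a higher ein2-5 mean with glucose, so these counts were partly fixed by it. The pairs were not counted over all genes, and nothing is read from them.

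**Figure D2:**
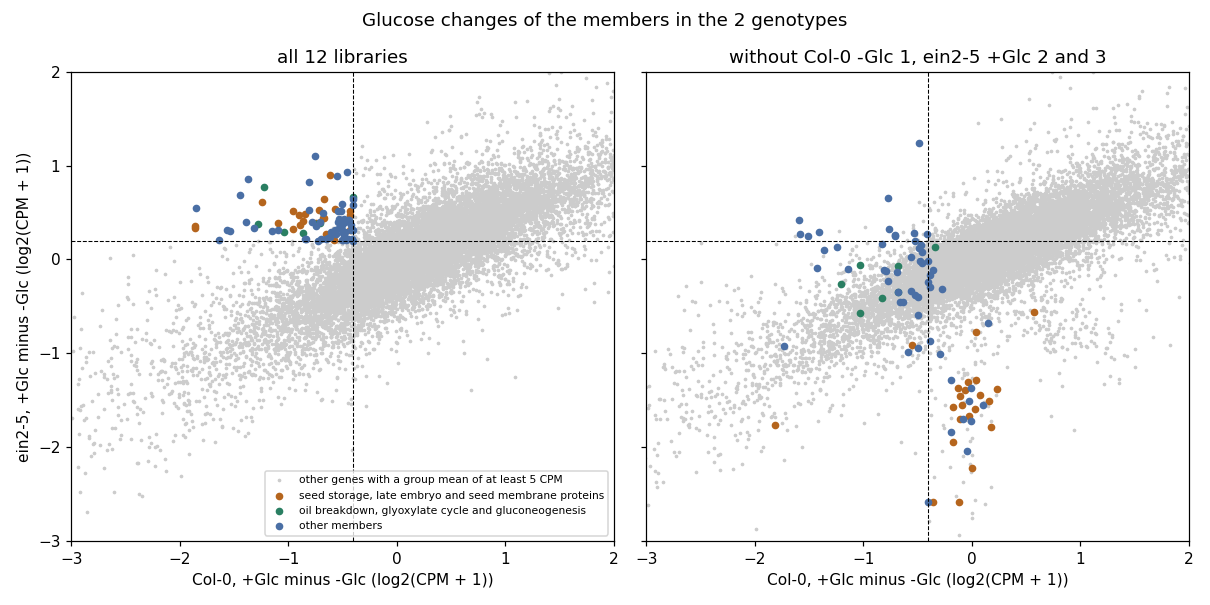
Each point is a gene with a group mean of at least 5 CPM; the horizontal axis is +Glc minus -Glc in Col-0 and the vertical axis is the same in ein2-5, both on the log2(CPM + 1) scale and drawn from -3 to 2. Dashed lines mark the thresholds of -0.4 and 0.2. With all 12 libraries (left) every member lies in the upper left corner by construction; without the seed-rich libraries (right) 11 members remain there and the seed protein genes lie below 0 in ein2-5.

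Genes just inside and just outside the thresholds differed little. At the Col-0 threshold, AT3G24927 was inside at -0.4002 and AT3G62500 outside at -0.3986. At the ein2-5 threshold, AT5G51830 was inside at 0.2013 and AT5G01670 outside at 0.198. At the level threshold, AT5G57790 had a highest group mean of 5.63 CPM and AT4G11040 of 4.97 CPM.

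The seed protein genes were present in all ein2-5 libraries and low in 5 of the 6 Col-0 libraries. Together the 22 members summed to 248, 2364 and 2833 CPM in ein2-5 +Glc 1, 2 and 3, and to 562, 875 and 1249 CPM in ein2-5 -Glc 1, 2 and 3. They summed to 3.45, 5.21 and 6.28 CPM in Col-0 +Glc and to 159.8, 6.41 and 10.2 CPM in Col-0 -Glc 1, 2 and 3. A single Col-0 library therefore held most of the Col-0 -Glc reads, and the ein2-5 +Glc libraries lay on both sides of all 3 ein2-5 -Glc libraries.

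CRA1 (AT5G44120, chromosome 5, 17756238 to 17758336 on the minus strand in TAIR10.1) encodes a cruciferin, a 12S globulin of the seed. It had 46.2, 909 and 1099 CPM in ein2-5 +Glc, against 245, 197 and 465 CPM in ein2-5 -Glc. In Col-0 +Glc it had 0.476, 0.869 and 0.735 CPM, against 47.9, 0.344 and 2.46 CPM in Col-0 -Glc. The groups overlapped in both genotypes. The change with glucose was 0.35 in ein2-5 and -1.86 in Col-0 on the log2(CPM + 1) scale, and without the seed-rich libraries it was -2.58 in ein2-5 and -0.36 in Col-0.

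SESA2 (AT4G27150), a 2S seed storage albumin, had 8.46, 153 and 289 CPM in ein2-5 +Glc and 31.0, 67.0 and 82.6 CPM in ein2-5 -Glc. It was listed at 0 in all 3 Col-0 +Glc libraries and had 4.14, 0.0573 and 0.115 CPM in Col-0 -Glc. Near-identical albumin genes lie beside it, and the split of their reads is uncertain. The oleosin OLEO2 (AT5G40420), which coats oil bodies, had 11.3, 74.1 and 148 CPM in ein2-5 +Glc and 22.1, 38.6 and 50.5 CPM in ein2-5 -Glc. It had 0.0595, 0.145 and 0 CPM in Col-0 +Glc and 5.86, 0 and 0.286 CPM in Col-0 -Glc. As in CRA1, ein2-5 +Glc 1 was the lowest of the 6 ein2-5 libraries for both genes, and Col-0 -Glc 1 the highest of the Col-0 libraries.

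The LEA gene ECP63 (AT2G36640) had 7.18, 50.8 and 55.2 CPM in ein2-5 +Glc and 10.9, 24.1 and 30.9 CPM in ein2-5 -Glc, and at most 2.57 CPM in any Col-0 library. AT3G02480, another gene annotated as LEA, reached 273 CPM in ein2-5 +Glc 2 and 14.9 CPM in Col-0 -Glc 1. Across the 22 genes, ein2-5 +Glc 1 was the lowest of its group for 22, and Col-0 -Glc 1 was at least 3 times both other libraries of its group for 20. With ein2-5 +Glc 1 alone, all 22 lay below 0 in ein2-5, between -2.58 and -0.56. Without Col-0 -Glc 1, 2 still met the Col-0 condition.

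One of these was BETA-TIP (AT1G17810), a water channel of the tonoplast in seeds. In ein2-5 it had 0.613, 9.38 and 19.0 CPM with glucose and 3.98, 3.66 and 6.15 CPM without, so the groups overlapped. It was listed at 0 in all 3 Col-0 +Glc libraries, where 3 reads are worth at most 0.217 CPM, and had 2.86, 2.69 and 2.35 CPM in Col-0 -Glc. In Col-0 its groups did not overlap. The related TIP3;1 (AT1G73190) had at most 0.362 CPM in Col-0 +Glc, against 0.229 and 0.0573 CPM in Col-0 -Glc 2 and 3, and its highest Col-0 value in Col-0 -Glc 1, so the 2 water channel genes differed in which Col-0 -Glc libraries held their reads.

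**Figure D3:**
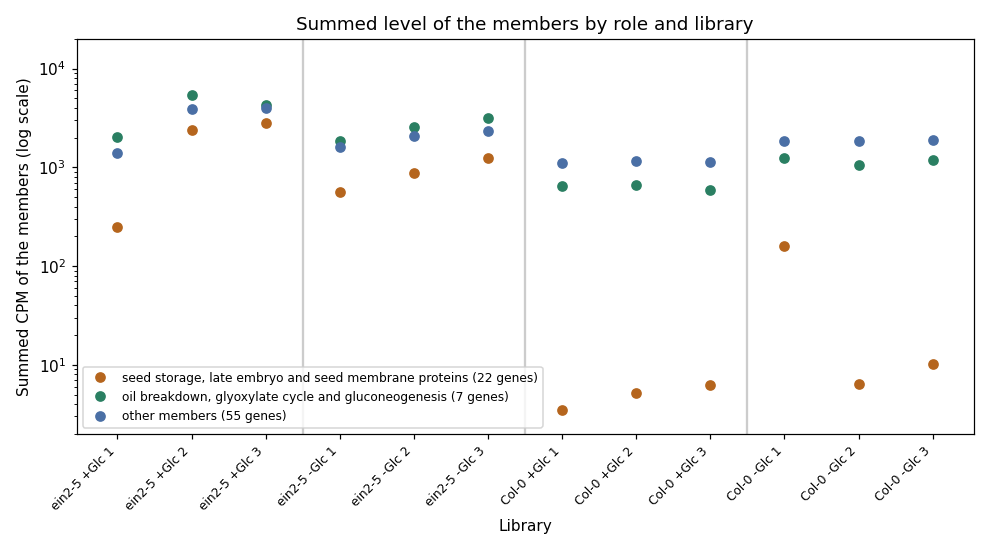
Points give the summed CPM of the members of each set in each library, on a log scale. The 22 seed protein genes range from 3.45 CPM in Col-0 +Glc 1 to 2833 CPM in ein2-5 +Glc 3 and stand at 159.8 CPM in Col-0 -Glc 1, while the sums of the other 2 sets differ much less between libraries.

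The windows of 300 bases before the annotated starts of the members were read from the TAIR10.1 genome and searched on both strands. The letters ACGTG are the core of the element through which abscisic acid acts, CACGTG is the G-box, which contains that core, and CATGCA is the core of the RY element bound by ABI3 and its relatives. ACGTG was present in 17 of the 22 windows of seed protein genes (77.3%), against 26.6% of 19351 windows of measured genes. CATGCA was present in 15 of 22 (68.2%), against 9.49%, and CACGTG in 13 of 22 (59.1%), against 8.15%. In the 55 other members the shares were 43.6% for ACGTG, 12.7% for CATGCA and 16.4% for CACGTG. Among the 7 oil use genes 3 held ACGTG and 1 held CATGCA. An element known from sugar-repressed genes, TATCCA, was in 22.6% of all 84 windows, against 16.7%. The letters ATGTAC occur in sites of EIN3. They were in 13.1% of the members' windows, against 11.4%. The variant ATGTAT was in 31.0% of the members' windows, against 27.7%. GCCGCC, the element bound by ethylene response factors, was in 1.19%, against 2.41%. A match says that the letters are present, not that a factor binds there.

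The windows below show the range, from a seed gene with both kinds of letters to a gene with neither. Each is written 5′ to 3′ on the strand of the gene, with ACGTG and CATGCA on either strand in capitals, and stands before the start of SESA2 (chr4:13609041-13609340, plus strand), ICL (chr3:7656054-7656353, minus strand) or ASPGB1 (chr3:5471435-5471734, plus strand). The sequences are from RefSeq, build TAIR10.1.
SESA2: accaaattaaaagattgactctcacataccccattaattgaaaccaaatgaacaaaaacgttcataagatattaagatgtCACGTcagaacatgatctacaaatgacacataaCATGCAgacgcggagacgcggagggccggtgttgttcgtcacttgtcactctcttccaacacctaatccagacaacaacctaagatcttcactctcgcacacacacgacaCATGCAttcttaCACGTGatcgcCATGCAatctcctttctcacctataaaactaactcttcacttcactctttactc
ICL: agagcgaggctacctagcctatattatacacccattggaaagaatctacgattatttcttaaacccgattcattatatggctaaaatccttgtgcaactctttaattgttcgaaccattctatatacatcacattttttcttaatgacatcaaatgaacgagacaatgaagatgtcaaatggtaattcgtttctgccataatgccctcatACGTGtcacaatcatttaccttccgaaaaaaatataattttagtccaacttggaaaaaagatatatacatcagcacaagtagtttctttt
ASPGB1: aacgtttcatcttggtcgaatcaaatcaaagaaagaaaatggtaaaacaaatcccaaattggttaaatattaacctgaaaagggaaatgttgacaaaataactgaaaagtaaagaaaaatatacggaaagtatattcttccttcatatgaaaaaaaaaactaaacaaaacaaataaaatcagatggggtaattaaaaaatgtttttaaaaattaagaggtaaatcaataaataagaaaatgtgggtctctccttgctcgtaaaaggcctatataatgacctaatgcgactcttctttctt
SESA2 carries both sets of letters in this window, the isocitrate lyase gene ICL carries ACGTG alone, and the asparaginase gene ASPGB1 carries neither.

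The oil use genes formed a second pattern, in which the lower values with glucose in Col-0 did not rest on Col-0 -Glc 1. The 7 members summed to 2045, 5353 and 4291 CPM in ein2-5 +Glc 1, 2 and 3, and to 1868, 2586 and 3177 CPM in ein2-5 -Glc. They summed to 647, 667 and 587 CPM in Col-0 +Glc and to 1229, 1068 and 1189 CPM in Col-0 -Glc. For all 7 genes, every Col-0 +Glc library lay below every Col-0 -Glc library, against 24.1% of all genes. Without Col-0 -Glc 1 the Col-0 condition was still met by 6. The pattern was not particular to this set. Among the 55 other members, 41 had Col-0 groups separate in this way, and 40 met the Col-0 condition without Col-0 -Glc 1. The rule used these values, and nothing is read from the counts.

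ICL (AT3G21720), isocitrate lyase of the glyoxylate cycle, had 760.2, 2585 and 1929 CPM in ein2-5 +Glc and 585, 1058 and 1214 CPM in ein2-5 -Glc. It had 121, 138 and 90.7 CPM in Col-0 +Glc and 279, 226 and 313 CPM in Col-0 -Glc. Its partner malate synthase, MLS (AT5G03860), had 217, 648 and 522 CPM in ein2-5 +Glc and 209, 325 and 492 CPM in ein2-5 -Glc, and 16.8, 15.8 and 12.5 CPM in Col-0 +Glc, against 53.7, 21.9 and 45.2 CPM in Col-0 -Glc. In both genes the Col-0 groups were separate, and in ein2-5 the library ein2-5 +Glc 1 lay inside the range of ein2-5 -Glc.

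PCK1 (AT4G37870), the phosphoenolpyruvate carboxykinase of gluconeogenesis, had 463, 1044 and 859.8 CPM in ein2-5 +Glc and 563, 568 and 722 CPM in ein2-5 -Glc. In Col-0 it had 237, 232 and 208 CPM with glucose and 433, 397 and 405 CPM without. With ein2-5 +Glc 1 alone its ein2-5 change was -0.41, where the mean of 3 libraries gave 0.28. The thiolase PKT3 (AT2G33150) of beta-oxidation averaged 394 ± 100.2 CPM in ein2-5 +Glc and 296 ± 42.8 CPM in ein2-5 -Glc, and 117 ± 2.18 CPM in Col-0 +Glc, against 191 ± 5.61 CPM in Col-0 -Glc (SD, n = 3 each). MFP2 (AT3G06860), which carries out the middle steps of beta-oxidation, averaged 298 ± 88.1 CPM in ein2-5 +Glc and 185 ± 50.9 CPM in ein2-5 -Glc, and was the single gene of this set above 0 in ein2-5 with ein2-5 +Glc 1 alone, at 0.13. The set also held CSY3 (AT2G42790), the peroxisomal citrate synthase, and PEX11E (AT3G61070), which acts in peroxisome division; PEX11E had 26.5, 27.7 and 27.8 CPM in Col-0 +Glc, against 57.7, 55.9 and 57.7 CPM in Col-0 -Glc.

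The other 55 members were of several kinds. In 9 of them Col-0 -Glc 1 was at least 3 times both other libraries of its group, as in the seed protein genes. These were EPR1 (AT2G27380, a proline-rich extensin), HVA22B, ATOEP16-2, scpl44, AT3G54940 (a papain family protease), AT5G50360, AT1G27461, AT1G68250 and AT5G35660, a glycine-rich protein gene. AT5G35660 had 26.9, 443 and 582 CPM in ein2-5 +Glc and 148, 107 and 289 CPM in ein2-5 -Glc, and at most 0.507 CPM in Col-0 +Glc, against 21.5, 0.286 and 1.32 CPM in Col-0 -Glc. EPR1, a gene of the endosperm of germinating seeds, had 35.8, 289.7 and 441 CPM in ein2-5 +Glc and 19.7, 4.81 and 6.36 CPM in Col-0 -Glc. AT1G03106, of unknown function, had the largest ein2-5 change of the members, 1.10, with 15.9, 150.3 and 142 CPM in ein2-5 +Glc and 20.2, 32.0 and 52.0 CPM in ein2-5 -Glc, and it too was lower in ein2-5 +Glc 1 than in any ein2-5 -Glc library.

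MPL1 (AT5G14180), a lipase induced by aphids, had the widest gap between the changes of the 2 genotypes, 2.40. It had 3.68, 20.3 and 21.2 CPM in ein2-5 +Glc and 5.21, 10.3 and 8.96 CPM in ein2-5 -Glc, and 0.655, 1.16 and 1.00 CPM in Col-0 +Glc, against 7.28, 5.73 and 5.04 CPM in Col-0 -Glc. Its Col-0 groups were separate and its ein2-5 groups overlapped.

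In 12 members the libraries did not overlap in either genotype, with every Col-0 +Glc library below every Col-0 -Glc library and every ein2-5 +Glc library above every ein2-5 -Glc library. That is 14.3% of the members and 0.287% of all genes, and the rule used the same values. In ein2-5 the groups of 12 members did not overlap, against 30.1% of all genes with that direction, and in Col-0 those of 51, against 24.1%. All 12 were among the 55 other members. The 11 members that still met the rule without the seed-rich libraries were also among these 55, and 8 genes were in both groups, ASPGB1, AAP4, AT4G22530, FMO, FLK, NAC6, AT4G16670 and AT1G15180. The other 3 that met the rule without those libraries were GSTU24, AT5G19440 and AT2G18690, and the other 4 without overlap were XT1, HHP2, AT3G56680 and SIP1;2.

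ASPGB1 (AT3G16150) encodes an asparaginase, which frees ammonium from asparagine. It had 5.34, 11.7 and 9.24 CPM in ein2-5 +Glc, against 3.91, 4.60 and 4.03 CPM in ein2-5 -Glc. In Col-0 it had 3.87, 3.33 and 3.81 CPM with glucose, against 10.4, 11.5 and 11.3 CPM without. The change with glucose was 0.86 in ein2-5 and -1.37 in Col-0, and 0.29 and -1.41 without the seed-rich libraries, so the ein2-5 value was smaller there. AAP4 (AT5G63850), an amino acid permease, had 13.5, 6.51 and 12.2 CPM in ein2-5 +Glc, against 5.62, 5.20 and 4.56 CPM in ein2-5 -Glc. In Col-0 it had 6.79, 7.67 and 4.81 CPM with glucose, against 10.7, 9.91 and 8.59 CPM without. Here ein2-5 +Glc 1 was the highest of its group, and without the seed-rich libraries the ein2-5 change was 1.25.

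Several of these genes changed little in size. FMO (AT1G12200), a flavin monooxygenase, had 15.1, 19.0 and 14.5 CPM in ein2-5 +Glc, against 11.2, 12.7 and 13.1 CPM in ein2-5 -Glc, and 11.2, 12.2 and 12.6 CPM in Col-0 +Glc, against 16.9, 17.8 and 17.8 CPM in Col-0 -Glc. FLK (AT3G04610), an RNA-binding protein that promotes flowering, averaged 55.2 ± 3.85 CPM in ein2-5 +Glc and 44.2 ± 5.95 CPM in ein2-5 -Glc, and 46.0 ± 1.33 CPM in Col-0 +Glc, against 61.0 ± 1.16 CPM in Col-0 -Glc (SD, n = 3 each). XT1 (AT3G62720), a xylosyltransferase that builds xyloglucan of the cell wall, averaged 21.5 ± 2.84 CPM in ein2-5 +Glc and 16.3 ± 1.53 CPM in ein2-5 -Glc, and 16.1 ± 1.52 CPM in Col-0 +Glc, against 21.8 ± 1.25 CPM in Col-0 -Glc (SD, n = 3 each). In FMO, FLK and XT1 the level of Col-0 -Glc was close to that of ein2-5 +Glc, and the level of Col-0 +Glc close to that of ein2-5 -Glc.

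Others had similar levels in 3 groups and were high in Col-0 -Glc, or were low in all ein2-5 libraries. AT4G16670, annotated as an auxin canalization protein, had 5.95, 6.58 and 5.93 CPM in ein2-5 +Glc, against 4.25, 4.86 and 5.24 CPM in ein2-5 -Glc, and 4.82, 4.99 and 4.01 CPM in Col-0 +Glc, against 14.2, 15.9 and 15.5 CPM in Col-0 -Glc. NSP5 (AT5G48180), a nitrile-specifier protein of glucosinolate breakdown, had 109.9, 187 and 107 CPM in ein2-5 +Glc, against 98.8, 101 and 109 CPM in ein2-5 -Glc, and 102, 114 and 79.7 CPM in Col-0 +Glc, against 230.4, 259 and 247 CPM in Col-0 -Glc. In NSP5 the ein2-5 groups overlapped and ein2-5 +Glc 2 stood above the other ein2-5 libraries. NAC6 (AT5G39610), also known as ORE1, a regulator of senescence that acts downstream of EIN2, had 0.491, 0.757 and 0.436 CPM in ein2-5 +Glc and 0.137, 0.333 and 0.304 CPM in ein2-5 -Glc, and 3.15, 2.61 and 5.41 CPM in Col-0 +Glc, against 13.6, 13.7 and 10.5 CPM in Col-0 -Glc. Its ein2-5 values lay near the worth of 3 reads, between 0.184 and 0.262 CPM in those libraries.

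Values of 3 of the transcription regulators among the members, picked after the values were seen, follow. GATA4 (AT3G60530), a GATA factor, had 32.3, 39.0 and 38.0 CPM in ein2-5 +Glc, against 23.3, 36.0 and 29.9 CPM in ein2-5 -Glc, and 31.2, 32.9 and 42.3 CPM in Col-0 +Glc, against 69.6, 81.8 and 87.1 CPM in Col-0 -Glc. Its Col-0 groups were separate and its ein2-5 groups overlapped. MYB101 (AT2G32460), a GAMYB-like factor, averaged 6.48 ± 3.76 CPM in ein2-5 +Glc and 3.44 ± 1.28 CPM in ein2-5 -Glc, and 0.781 ± 0.266 CPM in Col-0 +Glc, against 1.36 ± 0.407 CPM in Col-0 -Glc (SD, n = 3 each). AN3 (AT5G28640), a coactivator that promotes leaf cell proliferation, averaged 20.2 ± 4.04 CPM in ein2-5 +Glc and 16.2 ± 1.75 CPM in ein2-5 -Glc, and 15.5 ± 3.28 CPM in Col-0 +Glc, against 21.8 ± 0.395 CPM in Col-0 -Glc (SD, n = 3 each). With ein2-5 +Glc 1 alone the ein2-5 change was -0.32 for MYB101, -0.01 for AN3 and 0.13 for GATA4.

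**Figure D4:**
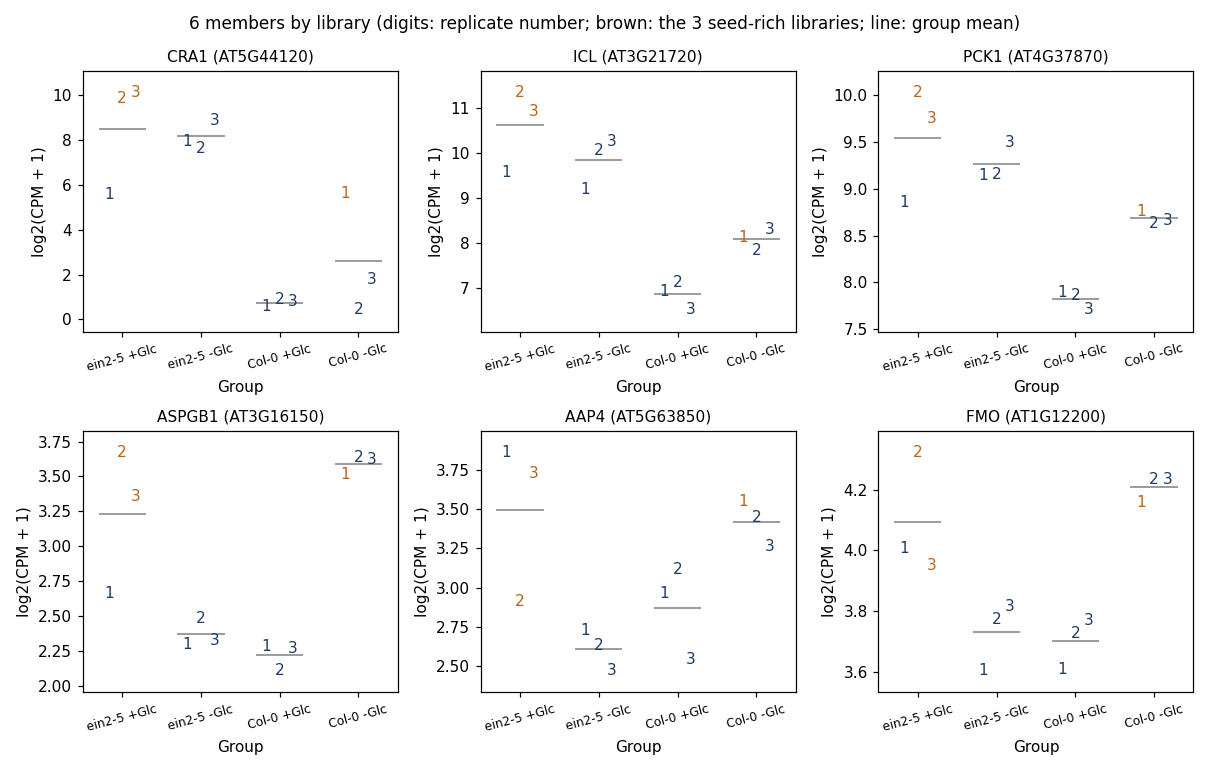
Digits give log2(CPM + 1) of 6 members in each library, the digit being the replicate number, with a grey line at the group mean; brown marks the seed-rich libraries, and the vertical axes differ between panels and do not start at 0. CRA1, ICL and PCK1 have ein2-5 +Glc 1 within or below the range of ein2-5 -Glc, whereas ASPGB1, AAP4 and FMO show no overlap of the glucose groups in either genotype.

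The mean difference between the genotypes over both glucose conditions was the comparison that the rule did not use. It is orthogonal to both glucose contrasts where all groups vary alike; the ein2-5 +Glc libraries varied more in the seed genes. In addition, 10 members had an overall mean under 5 CPM and passed the level threshold through their highest group, so the counts are a description. These were NAC6 and AT4G22530, highest in Col-0 -Glc, and MYB101, BETA-TIP, AT2G25890, CBSX4, AT3G19920, AT5G57790, AT5G50360 and AT1G27461, highest in ein2-5 +Glc. In limma, with Benjamini-Hochberg adjustment over all genes, 56 members were higher in ein2-5, or 66.7%, against 36.8% of all genes. Another 10 were lower, or 11.9%, against 23.1%. These shares are over all 19522 genes, of which 16011 were open to the rule by level and locus. The members and all genes are therefore not alike in level. The other 18 members did not pass. A filter on a mean of at least 5 CPM over all libraries left out the members listed above. With it, fewer genes were tested, and 48 members were higher and 8 lower. The share of all genes called in that fit is not given, and nothing is read from these counts. Over all 84 members the median difference was 1.22, against 0.07 for all genes. With the seed-rich libraries left out, 52 passed as higher and 13 as lower, against 31.4% and 15.7% of all genes. AT3G24927, AT5G21020, GRP2 and AT4G34881 were then no longer called higher, and ASPGB1, AT1G62290 and AT5G51830 were called lower.

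All 22 seed protein genes were higher in ein2-5, by between 1.70 and 6.64 with a median of 4.15. Without the seed-rich libraries the differences lay between 0.67 and 5.92 with a median of 3.37. Those libraries stood out by seed storage sums that include CRA1 and SESA2, and ein2-5 +Glc 1 was then alone in its group. The range without them is therefore no separate check of these genes. The lowest value with and without them was that of BETA-TIP, which like AT2G25890 had reached the level threshold through ein2-5 +Glc. For BETA-TIP and AT2G25890 the differences are therefore a description and not a test. CRA1 had the largest difference, 6.64 ± 0.852 (SE; limma adjusted p = 2.25e-05). SESA2 stood at 5.59 ± 0.685 (limma adjusted p = 1.51e-05) and the LEA gene AT3G02480 at 5.35 ± 0.605 (limma adjusted p = 7.66e-06). Every one of the 6 ein2-5 libraries was above 5 of the 6 Col-0 libraries for CRA1, ein2-5 +Glc 1 at 46.2 CPM being just below Col-0 -Glc 1 at 47.9 CPM. All 7 oil use genes were higher too, with a median of 1.15, and 0.82 without the seed-rich libraries. MLS led them at 3.89 ± 0.286 (limma adjusted p = 2.05e-07) and ICL followed at 2.75 ± 0.264 (limma adjusted p = 1.95e-06). In ICL and MLS every ein2-5 library lay above every Col-0 library.

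Of the 55 other members 27 were higher and 10 lower in ein2-5, where 36.8% of all genes were called higher and 23.1% lower. The median difference of these 55 was 0.51, and 0.12 without the seed-rich libraries. AT5G35660 and AT1G68250 were higher by 6.28 ± 0.758 and 5.52 ± 0.67 (limma adjusted p = 1.34e-05 and 1.39e-05). NAC6 and AT4G22530 stood at -2.49 and -1.02, values given without a test because their high Col-0 -Glc group admitted them. Among the lower genes with an overall mean of at least 5 CPM, AT2G18690, uncharacterized, had -1.87 ± 0.157 and the beta-glucosidase BGLU11 (AT1G02850) -1.76 ± 0.111 (limma adjusted p = 6.22e-07 and 6.14e-08). BGLU11 had 14.8, 18.6 and 20.6 CPM in ein2-5 +Glc and 11.4, 14.4 and 18.6 CPM in ein2-5 -Glc, and 42.9, 48.3 and 52.7 CPM in Col-0 +Glc, against 61.8, 73.4 and 68.6 CPM in Col-0 -Glc. The AP2/ERF family gene AT1G36060, listed as an integrase-type DNA-binding protein, had -1.19 ± 0.143 (limma adjusted p = 1.24e-05). ASPGB1, AAP4, FMO and FLK did not pass, with differences between -0.11 and -0.04, nor did XT1; for AAP4 it was -0.09 ± 0.154 (limma adjusted p = 0.627). ASPGB1 stood at -0.11 (limma adjusted p = 0.527) with all libraries. Without the seed-rich libraries it stood at -0.41 and AAP4 at 0.12, values that rest on ein2-5 +Glc 1 alone in its group.

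**Figure D5:**
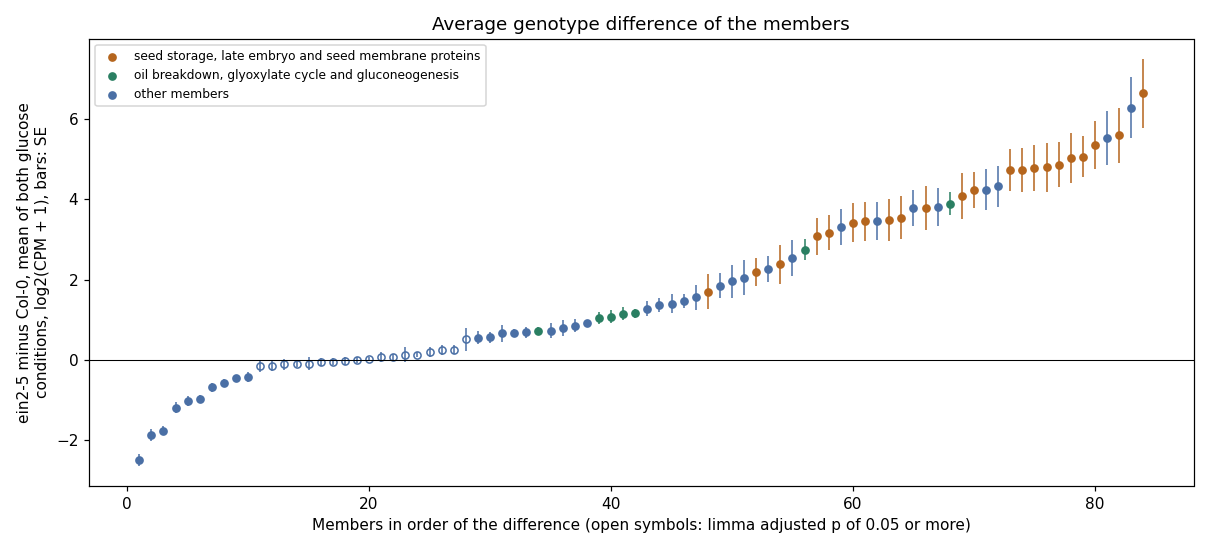
Points give the difference ein2-5 minus Col-0, averaged over both glucose conditions, for the 84 members in order, on the log2(CPM + 1) scale with bars of 1 SE; filled points passed the limma threshold. The seed protein and oil use genes all lie above 0, up to 6.64, and the 10 genes that were lower, down to -2.49, are all among the other members.

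Of the 84 members 20 were in the gene lists compared. The seed storage list gave 3 of 12 measured genes, CRA1, SESA2 and AT2G28490, and the late embryo and oil body list 15 of 30. The other genes of these lists missed a threshold; the cruciferin CRU3 (AT4G28520), for example, had a change with glucose of -0.02 in ein2-5 and -2.06 in Col-0, and the oleosin OLEO1 (AT4G25140) of 0.06 and -1.25. In the average genotype difference, all 12 and all 30 were higher in ein2-5, against 36.8% of all genes, with medians of 4.94 and 3.51. Of 6 measured seed and dormancy regulators none was a member, and 4 were higher and 1 lower in ein2-5. Of 6 seed coat and endosperm genes EPR1 was a member, and 4 were higher and 1 lower. Of 12 root hair genes LRL3 (AT5G58010), a root hair bHLH factor, was a member, and 12 were higher.

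No gene of the remaining lists was a member. Their counts are to be set beside the 36.8% of all genes called higher and the 23.1% called lower. In the average genotype difference the abscisic acid, drought and cold list had 12 of 16 genes higher and 3 lower, and the mitosis list 14 of 15 higher. The ethylene response list had 1 of 16 higher and 14 lower, and the sugar starvation list 1 of 17 higher and 10 lower. Of 19 light harvesting and RuBisCO small subunit genes 10 were lower, of 13 clock genes 1 was higher and 7 lower, and of 11 auxin response genes 4 were higher and 4 lower.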

How the data were processed

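The single table gives a value for each of 12 libraries. The authors deposited CPM, a unit read from the values, since each column sums to 1000000; TopHat, HTSeq and the genome TAIR10 are named in the submitters' processing notes, with versions and strand setting not given in the sources used here. All deposited CPM values (100%) were whole multiples of 1 read within 0.01 reads, so reads were recovered. Every listed gene reached at least 1.06 CPM in some library. A locus left out of the members is not reported here.

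The members, the gene lists and the motifs were chosen with earlier results of these data known. The main test, limma 3.58.1 in R 4.3.3, was fitted to log2(CPM + 1) with 4 group means, 8 residual degrees of freedom, no filter, Benjamini-Hochberg adjustment over 19522 genes and a threshold of 0.05; the scale understates the change of low genes. The test was tried on simulated data with 200 changed genes. Alternatives used edgeR 4.0.16 and DESeq2 1.42.0 on the recovered reads, TMM scaling, other pseudocounts, a filter, a replicate block and left-out libraries.

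All 84 members matched the RefSeq annotation of TAIR10.1 by locus code, and 46 had a symbol. Genes named were those with the largest differences, the highest levels, no overlap of libraries, membership without the seed-rich libraries or a place in a list; others, such as PEX11E, CSY3, MFP2, AT1G03106, MYB101, GATA4 and AN3, were named after their values were seen. Within groups, log2(CPM + 1) of library pairs gave r of 0.9688 to 0.9937 over genes, and no pair of libraries matched within counting noise, with chi-square per gene of at least 6.45. Deviations of same-numbered ein2-5 libraries gave r of 0.56, 0.12 and 0.43 for replicates 1, 2 and 3, which is from the data and not the labels. Same-numbered libraries of other pairs of groups gave r between -0.26 and 0.36, so positive values were not particular to ein2-5. The split of reads between near-identical or overlapping genes is uncertain, since counting settings were not given. Windows of 300 bases before the annotated starts were searched.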

Additional observations from a re-analysis of the deposited data

Results flagged for a closer look

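In 12 members every ein2-5 +Glc library lay above every ein2-5 -Glc library and every Col-0 +Glc library lay below every Col-0 -Glc library. This was 14.3% of the members and 0.287% of all genes, and the rule itself required opposite directions. In ein2-5 alone, 14.3% of the members had separate groups, against 30.1% of all genes with that direction. Of the 12 members, 8 met the rule without the seed-rich libraries. After TMM scaling the 12 became 8. The difference between the glucose responses of the genotypes was not tested here, because the rule chose the members on it.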

How the results depend on the processing

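The number of genes meeting the rule was 84 as described, 105 with a pseudocount of 0.25, 45 with a pseudocount of 4, 103 after TMM scaling, 74 with a mean of at least 5 CPM over all libraries, between 40 and 165 with a library left out, and 26 without the seed-rich libraries. Of the 84, 80, 44 and 68 met it with the pseudocounts of 0.25 and 4 and after TMM scaling. TMM scaling brought the median glucose change of all genes in Col-0 to 0.01, against 0.19 as deposited. The cause of these shifts was not tested. The average genotype difference gave 56 members higher and 10 lower. Under the filter, which left out the members with an overall mean under 5 CPM and tested fewer genes, the counts were 48 and 8. The difference gave 56 and 11 in edgeR and in DESeq2, and between 55 and 61 and between 10 and 11 with a library left out. With the replicate number as a block over all libraries it gave 56 and 10. Same-numbered libraries did not correlate above 0.1 in every pair of groups, so this block rests on a number alone. Shares of all genes called are not given for the filter, edgeR, DESeq2, the left-out libraries or this block. Nothing is read from their counts. With the replicate block within ein2-5, chosen after seeing the data, 28 members were called higher with glucose there, against 11. The 12 members without overlap became 8 after TMM scaling. The 66 members past the threshold in the average genotype difference included those with an overall mean under 5 CPM, which their highest group had admitted. The repeats are therefore a description. Over the 66, 1305 of 1310 repeats kept the direction and the side of the threshold, and 5 kept the direction but missed it. Those were AT3G24927 at 0.30, AT5G21020 at 0.14, GRP2 (AT4G38680) at 0.38 and AT4G34881 at 0.16 without the seed-rich libraries, and AT5G21020 at 0.55 without ein2-5 +Glc 2. Genes near the worth of 3 reads, between 0.172 and 0.262 CPM, have changes that the pseudocount compresses.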
